A study of Mus musculus with 2 samples.

Results

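The replication-dependent histone genes of the mouse lie in clusters, the large Hist1 cluster on chromosome 13 and the smaller Hist2 cluster on chromosome 3. NELF-B occupancy was examined there in a list of enriched regions from mouse embryonic fibroblasts, connective tissue cells grown from an embryo. Regions were taken as members by position alone, when the summit lay in 1 of 3 windows given in the coordinates of the list: 21.7 to 22.3 Mb of chromosome 13 (the first Hist1 window), 23.4 to 24.0 Mb of chromosome 13 (the second Hist1 window), and 95.95 to 96.4 Mb of chromosome 3 (the Hist2 window, which also takes in neighbours of that cluster). Of 9095 regions in all, 46 were members, with 11 in the first Hist1 window, 18 in the second and 17 in the Hist2 window. Each window was set beside its flanks, meaning the regions within 2 Mb on either side that lay in no window, of which there were 11, 16 and 44 in the same order. The flanks of the 2 Hist1 windows share 8 regions.

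Replication-dependent histone genes encode the histones that package newly copied DNA, and their transcription rises when cells enter S phase. Their messenger RNAs end in a stem-loop in place of a poly(A) tail. NELF-B, also called Cobra1, is part of the negative elongation factor (NELF), which keeps paused RNA polymerase II close to the start of genes. NELF has also been described as a partner of the nuclear cap-binding complex in the 3′ end processing of histone messenger RNAs.

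The data come from chromatin immunoprecipitation sequencing (ChIP-seq) with a purified polyclonal antibody against NELF-B. There was 1 NELF-B library and 1 input library, and the list belongs to the first, while no values of the input were used here. The embryo that gave the cells was Nelf-b f/-, in the usual notation 1 floxed and 1 null allele, on a background that mixed FVB, C57BL/6 and 129/SvJ, so both libraries carry the null allele, and no library of wild-type cells was analysed here. The cells grew asynchronously in medium with 10% serum. No value has a replicate error. The sequencing depth is unknown, and the intervals below cover only the spread or the count over regions of 1 library. Each region has a summit with a height, a whole number in a unit of the authors that the sources do not explain. Across the list the median height was 44, with quartiles of 32 and 65, and the median width was 1138 bp.

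The gene table used for names is RefSeq's for assembly GRCm38.p6, and the list is in other coordinates, since on chromosome 7 it runs 7.19 Mb past the last gene of that table. The windows were drawn on the reading that the list is in mm9, a build that the sources used here do not state. No region was therefore assigned to a gene, and whether each summit lies at a histone gene was not tested. In the order of the table, chromosome 13 holds 55 histone genes of this kind in 4 runs, counting 1 that is not annotated as protein-coding. The first run, from H2bc13 to H4bc24 (an H2B gene with the older name Hist1h2br), has 19 genes, and the second, from H2ac12 to H2bc11, has 5. Between them lie 39 other genes, of which 31 are transfer RNA genes, with the protein-coding genes Zfp184, Pom121l2 and Prss16. The third, from H4c8 to H1f1, is the largest with 29 genes. It is set apart from the second by 147 other genes, of which 75 are vomeronasal receptor genes or pseudogenes (Vmn1r) and 46 are transfer RNA genes. The last run is the pair H2bc1 and H2ac1, which encode testis histones and follow 8 other genes, among them Trim38 and the phosphate transporter genes Slc17a1 to Slc17a4. On chromosome 3 the Hist2 cluster is 1 run of 10 genes, from H2ac21 to H2bc18, with Bola1 and Sv2a just before it and Fcgr1 just after it.

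Sequences before the start sites are shown for the first gene of each histone family in the order of the table, on either chromosome. They are examples, and a printed stretch need not hold every element common in its family. Each is the 150 bases before the annotated start, upstream of the transcribed part, from RefSeq on GRCm38.p6, and its position is in that build and cannot be set against positions of the list. Capitals mark matches on either strand to any of 5 motifs. The TATA box was searched as TATAAA and the CCAAT box by the letters of its name. The H1 box, an element of linker histone genes, was searched as AAACACA. The octamer was searched as ATTTGCAT, and the GC box as GGGCGG. Chromosome 3 has no H1 gene of this kind, and its only H4 gene, H4c14, had no entry.
H1f5 (H1, chr13:21780626-21780775, minus strand): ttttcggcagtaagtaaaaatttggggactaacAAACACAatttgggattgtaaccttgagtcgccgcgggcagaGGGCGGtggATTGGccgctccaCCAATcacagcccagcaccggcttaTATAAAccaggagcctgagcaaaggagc
H2ac13 (H2A, chr13:21716262-21716411, plus strand): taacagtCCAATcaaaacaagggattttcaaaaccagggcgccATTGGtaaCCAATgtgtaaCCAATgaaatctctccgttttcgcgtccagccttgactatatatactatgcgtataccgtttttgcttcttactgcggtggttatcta
H2bc13 (H2B, chr13:21716184-21716333, minus strand): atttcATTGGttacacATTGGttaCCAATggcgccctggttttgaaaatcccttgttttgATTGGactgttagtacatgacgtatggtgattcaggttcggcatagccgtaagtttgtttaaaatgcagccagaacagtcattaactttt
H3c10 (H3, chr13:21717478-21717627, plus strand): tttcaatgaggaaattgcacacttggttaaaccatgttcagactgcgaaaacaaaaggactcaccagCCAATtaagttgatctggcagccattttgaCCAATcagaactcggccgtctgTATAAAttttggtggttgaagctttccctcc
H4c11 (H4, chr13:21734884-21735033, plus strand): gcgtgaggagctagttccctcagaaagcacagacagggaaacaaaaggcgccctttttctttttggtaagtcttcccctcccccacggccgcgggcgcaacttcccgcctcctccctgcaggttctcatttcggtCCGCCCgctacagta
H2ac21 (H2A, chr3:96219735-96219884, plus strand): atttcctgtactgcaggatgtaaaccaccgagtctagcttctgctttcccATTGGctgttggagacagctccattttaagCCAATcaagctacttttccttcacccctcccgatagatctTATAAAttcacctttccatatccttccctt
H2bc18 (H2B, chr3:96269550-96269699, plus strand): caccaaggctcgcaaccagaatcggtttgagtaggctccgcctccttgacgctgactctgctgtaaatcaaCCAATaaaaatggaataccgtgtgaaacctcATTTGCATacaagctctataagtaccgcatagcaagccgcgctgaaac
H3c15 (H3, chr3:96239128-96239277, minus strand): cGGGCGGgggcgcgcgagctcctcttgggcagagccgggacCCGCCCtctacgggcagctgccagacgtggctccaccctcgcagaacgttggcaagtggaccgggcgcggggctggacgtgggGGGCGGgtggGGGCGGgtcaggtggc

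H2ac13 and H2bc13 face away from each other and share part of the stretch printed for them, on opposite strands. Of the 14 places where an H2A gene and an H2B gene are neighbours in the table, both strands were known for 11, and 10 of these pairs were transcribed away from each other. A promoter entry of 300 bases, 250 before and 50 after the start, was found for 59 of the 65 genes, with no entry for H2ac14, H3c7, H2bc4, H3c1, H2bc21 and H4c14. Letters matching CCAAT were in 86.7% of the 60 histone entries, against 37.4% of all 32851 promoter entries. All entries of the H1, H2A, H2B and H3 genes held them, while 3 of 11 H4 entries did. TATAAA was in 56.7% of histone entries, against 13.6% of all. The octamer, an element known from H2B promoters, was in 7 of 16 H2B and 6 of 17 H2A entries and in none of the H1, H3 and H4 entries, against 1.74% of all. AAACACA was in 5 of 6 H1 entries, against 7.18% of all promoters. GGGCGG was in 38.3% of histone entries and 35.7% of all, but the families differed. It was in 8 of 11 H4, 4 of 6 H1 and 7 of 17 H2A entries, and in 2 of 10 H3 and 2 of 16 H2B entries. Entries of genes that face away from each other can overlap, so a match can be counted for both genes. Entries that are near-copies of each other were counted separately. These letter matches describe sequence and are not evidence of binding.

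Some of these genes are near-copies of each other, which bears on where reads can be placed. Of 59 histone promoter sequences, 14 shared at least 1 word of 30 bases with another, and 10 shared at least 50% of their words. H2bc23 and H4bc24 shared 100% of them, H4c17 and H4c18 94.5%, H3c14 and H3c15 83.4%, and H2ac18 and H2ac19 70.1%. These near-copies belong to the first run on chromosome 13 and to chromosome 3. The sources used here do not say how the authors treated reads that fit more than 1 place, and its part in the heights was not tested.

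The first Hist1 window held 1 very tall region among regions that were mostly far lower. In order along the chromosome, the 11 heights were 39, 123, 163, 265, 576, 100, 167, 25, 19, 126 and 37. The tallest, at chr13:21870575-21872948, was 2374 bp wide, and its height of 576 was 13.1 times the list median and ranked 3 of 9095. Before it, heights rose from 39 at chr13:21801659-21803032 to 123 at chr13:21813510-21815020, 163 at chr13:21825822-21828209 and 265 at chr13:21844446-21847378. The region 6.67 kb after it, at chr13:21877706-21880125, had a height of only 100. The region of height 265 was the widest of the window with 2933 bp. The region at chr13:21923869-21924202 had a height of 167 but spanned only 334 bp, the narrowest of all 46 members, and ranked 9092 of 9095 by width. Past it came a gap of 112 kb and then 4 scattered regions. Their heights were 25 at chr13:22036341-22037811, 19 at chr13:22065817-22067325, 126 at chr13:22127247-22128999 and 37 at chr13:22142161-22143487. The first 7 regions thus made 1 group of 123 kb with a median of 163, and each of the 4 after it was below that median.

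Against its flanks, the first Hist1 window was denser on average and its regions were wider, while its median height was not separable from theirs. The median height was 123, with an exact order-statistic 95% interval of 25 to 265, against 39 (36 to 51) in the flanks. The ratio of 3.15 has an interval of 0.641 to 6.79 when the median of the flanks is held fixed, so it includes equal heights. Even so, 7 of 11 members were taller than every flank region, the tallest of which reached 79. The median width was 1511 bp (1327 to 2420) against 937 bp (761 to 1222), and 10 of 11 members were wider than every flank region. The window held 18.3 regions per Mb and the flanks 3.24, a ratio of 5.67 (exact 95% interval 2.23 to 14.4). All 11 flank regions lay before the window, and against that side alone the ratio was 3.33. It was 3.67 with flanks of 1 Mb, 9.92 among regions at or above the list median in height and 9.95 over the span from the first to the last member. Between the window's end and the second Hist1 window there was no region. Before the window, the farthest flank region lay at -2161 kb from the tallest summit and the others at -601 to -250 kb. The window itself began at -172 kb. The flanks were thus empty over long stretches, which the density ratios include. All flank regions but 1 lay in the stretch from -601 to -250 kb. The ratios therefore do not show that the window was denser than that nearby stretch, and density right beside the window was not compared.

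The second Hist1 window had the highest median height of the 3 windows. It opened with 5 regions over 78.7 kb, from chr13:23460318-23461676 onwards, with heights of 51, 37, 33, 209 and 43. Of these, only the region of height 209, at chr13:23523184-23525294, reached 93, the height that 10.0% of the list reached or passed. After a gap of 82.6 kb, 13 regions followed one another with heights of 463, 365, 455, 498, 218, 531, 251, 207, 477, 334, 274, 369 and 284. The lowest of these, 207, was 4.70 times the list median, so all 13 were far above the middle of the list. The tallest region, at chr13:23672866-23674837, had a height of 531 and ranked 7 in the list. It was followed by 498 at chr13:23646306-23648641, 477 at chr13:23788560-23791085, 463 at chr13:23621649-23624821 and 455 at chr13:23642090-23644243. Ranks 11, 12, 14 and 15 of the list thus lay in this window too. The lowest members were the 2 regions of height 33, at chr13:23515308-23516227, and 37, at chr13:23504342-23505450. The widest, at chr13:23774645-23778043, spanned 3399 bp and ranked 6 of 9095 by width, with a height of 207. A gap of 59.7 kb divided the tall stretch into 7 regions with a median of 455 and 6 with a median of 309, and the heights of these groups overlapped.

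The median height in the second Hist1 window was above that of its flanks, though heights of members ranged from 33 to 531. The median was 279 (207 to 455) against 43.5 (37 to 62). The ratio of 6.41 has an interval of 4.76 to 10.5 when the median of the flanks is held fixed. In all, 14 of 18 members were taller than every flank region, where the highest was 124, and 3 were at or below the flank median. The median width was 2195 bp (1863 to 2526) against 1130 bp (937 to 1238), and 15 of 18 members were wider than every flank region. The density was 30 per Mb against 4.71, or 6.38 times (3.07 to 13.4). It came to 11.8 times with flanks of 5 Mb and to 9.47 times against the rest of the chromosome. Among regions at or above the list median in height it was 10.6 times, and over the span from the first to the last member 9.65 times. Lower values were 5.25 times against the flank before the window alone and 6.02 times without the tallest member. The last member, at chr13:23854993-23856683 with a height of 284, was followed by 516 kb without a region, which covers the remaining 144 kb of the window.

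The Hist2 window held the tallest region of the list among many ordinary ones. The heights of its 17 members, in order, were 64, 83, 110, 315, 41, 175, 99, 556, 730, 38, 133, 88, 52, 20, 327, 36 and 44. The region of height 730, at chr3:96071975-96074376, was 16.6 times the list median, and the one of height 556 before it, at chr3:96065565-96068531, ranked 5 in the list. These summits were 6.53 kb apart. The next 3 were 327 at chr3:96360637-96362701, 315 at chr3:96023060-96025895 and 175 at chr3:96040719-96042556. The region 8.51 kb after the tallest had a height of 38, a drop of 19.2 times between neighbours. A similar step, of 16.4 times, separated the regions of height 20 and 327. The lowest members were 20, at chr3:96298691-96299460, and 36, at chr3:96379907-96381528. The widest member was 1 of the 2 tallest, the region of height 556 with 2967 bp, and the first member, at chr3:95963771-95966730, was nearly as wide, with 2960 bp and a height of only 64. Tall and low regions were thus neighbours at several places in this window.

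Against its flanks, the Hist2 window was denser and wider in the median, and its median height was not separable from theirs. The median height was 88 (44 to 175) against 53 (47 to 66), a ratio of 1.66 with an interval of 0.830 to 3.30. The ratio of means was 2.98. Of 17 members, 5 were taller than every flank region, where the highest was 145, and 6 were at or below the flank median. The median width was 1622 bp (1396 to 2065) against 1160.5 bp (1062 to 1281), with 3 members wider than every flank region. Density was 37.8 per Mb against 11.0, or 3.43 times (1.84 to 6.13). The 2 sides differed, with 16.5 regions per Mb before the window and 5.50 after it, and the ratio was 2.29 against the side before and 6.87 against the side after. It was 7.13 with flanks of 5 Mb and 13 against the rest of chromosome 3, so its size depends on the surroundings chosen. At the far edge, the last member's summit, at chr3:96397555-96398559 with a height of 44, lay 1.76 kb inside the window, and the next region, 33.7 kb outside, had a height of 102. Before the window, the nearest region was 88.3 kb outside with a height of 47 and the first member 15.3 kb inside with 64.

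**Figure D1:**
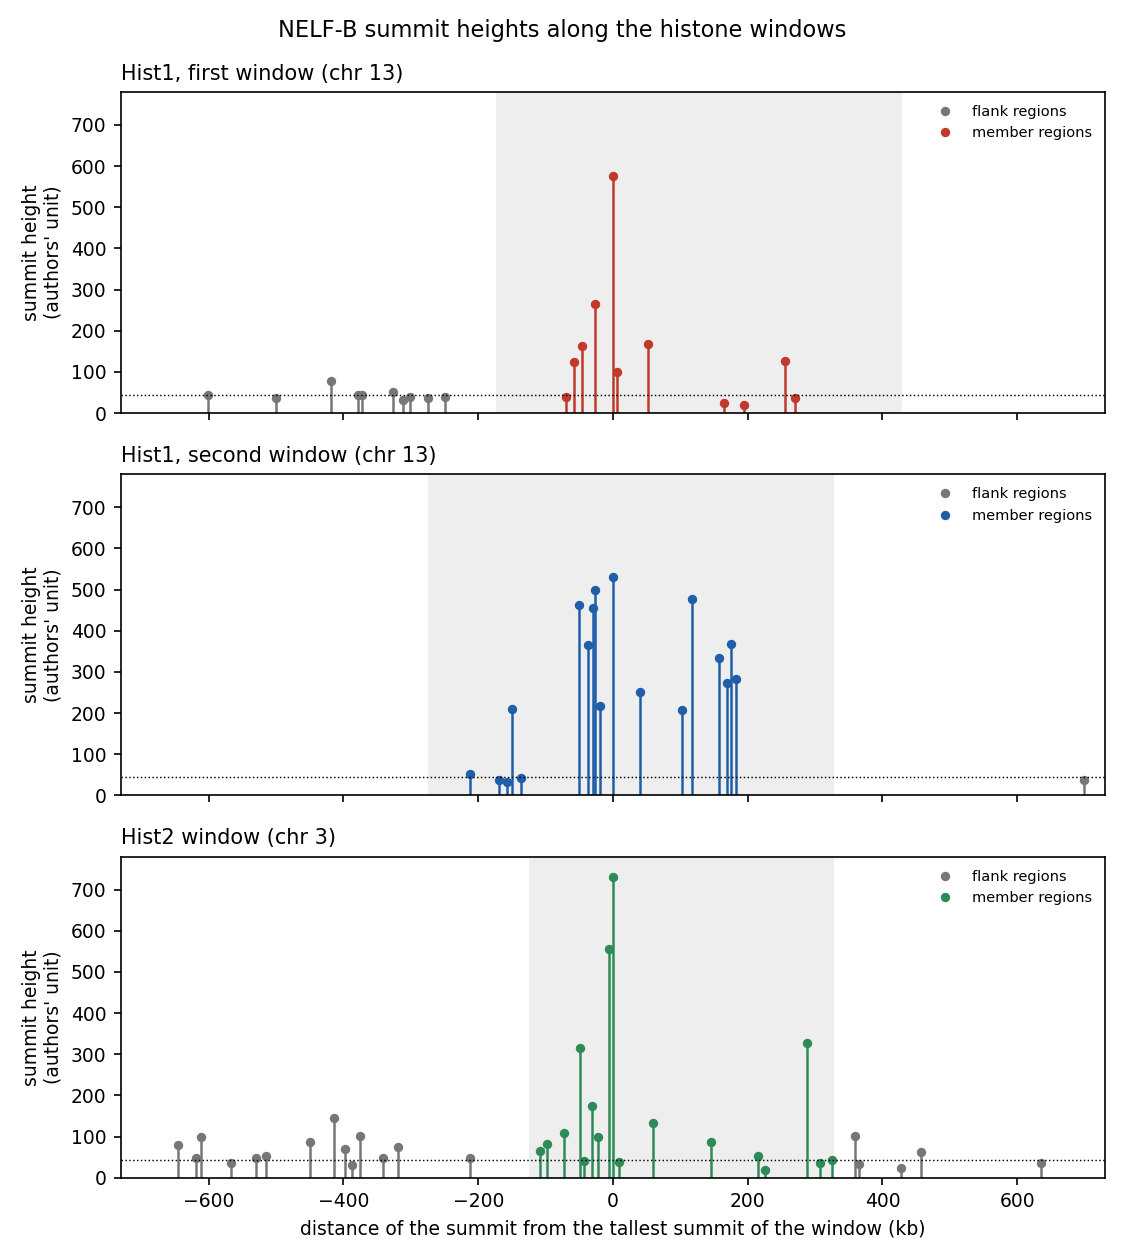
Summit height in the authors' unit against the distance in kb from the tallest summit of each window; grey shading marks the window, coloured points its members, grey points flank regions, and the dotted line the list median of 44. Flank regions beyond the ends of the axis are not shown. Those of the second Hist1 window lay at -2219 to -2051 kb and at 700 to 1439 kb. The second Hist1 window shows 13 consecutive summits between 207 and 531, while the other windows mix tall and ordinary summits.

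On chromosome 13 the distances at the edges of the windows varied widely. The first Hist1 window began 77.1 kb after a region of height 39, and its own first member, also of height 39, lay 102 kb inside. From its last member, of height 37, to the first member of the second window, of height 51, there were 1317 kb without a region. In the table the Vmn1r genes follow the second histone run, but they were not located in the coordinates of the list. The nearest region after the second window lay 373 kb outside it, with a height of 37.

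Members made up a larger share of the list's extremes than of the list. The 46 members are 0.506% of the regions and held 1.92% of the summed height. Of the whole list, 10.0% of regions had heights of at least 93, the 90th percentile. Such heights were found in 7 of 11 members of the first Hist1 window (63.6%, exact Clopper-Pearson 95% interval 30.8 to 89.1), 14 of 18 of the second (77.8%, 52.4 to 93.6) and 8 of 17 of the Hist2 window (47.1%, 23.0 to 72.2). All 3 intervals lay above the share of the list, though the windows were proposed with earlier results of these data known. In the flanks the counts were 0 of 11, 1 of 16 and 5 of 44. At the 99th percentile, passed by 1.00% of the list, there were 2, 11 and 4 members and no flank region. Of the 119 regions of the list with a height of at least 200, 20 were members, which is 16.8% of those regions and 43.5% of the members. Among the 10 tallest regions of the list, 4 were members. Ordinary regions were found too, since 18 of the 46 members had heights under 100, and 3 had heights no greater than 32, the first quartile.

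**Figure D2:**
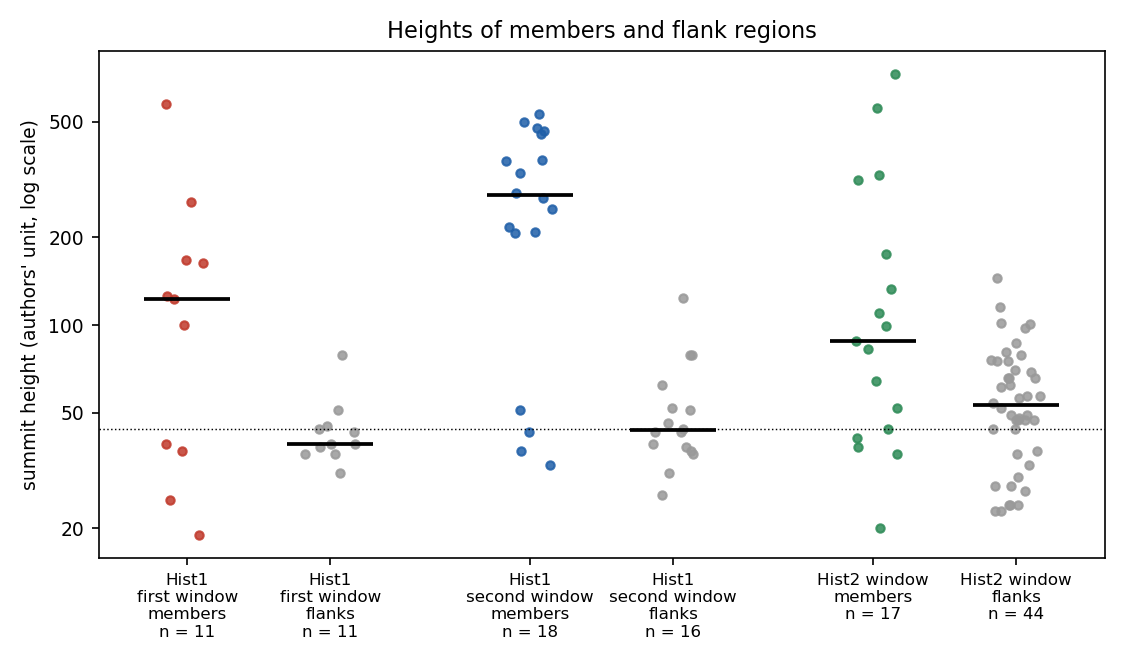
Summit heights in the authors' unit on a log scale for members (coloured) and flank regions (grey) of each window, with 1 point per region, the median as a bar and the list median of 44 as a dotted line. Medians of members were 123, 279 and 88, against 39, 43.5 and 53 in the flanks.

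Members were wide for their height. Widths of at least 1691 bp, the 90th percentile of the list, were found in 10.0% of all regions, and in 5 of 11, 15 of 18 and 8 of 17 members. The flanks had 0 of 11, 0 of 16 and 2 of 44. Taller regions were wider throughout the list, with a Spearman correlation of height and width of 0.42 over 9095 regions, so height has to be held alike. Among regions with heights of at least 200, the 20 members had a median width of 2419.5 bp (quartiles 2143.2 and 2941.5), against 1627 bp (1390.5 and 2139) for the 99 regions elsewhere. That class has no upper limit, and 13 of these members reached 300, against 29 of the others, so heights were not fully alike. At 400 or more the medians were 2388 bp for 8 members and 1925 bp for 13 others. At 500 or more they were 2388 bp for 4 members and 1781.5 bp for 6 others. Between 100 and 200 the medians were 1795.5 bp for 8 members and 1353 bp for 617 others. Below 100 they were 1385 bp for 18 members and 1117 bp for 8333 others. The medians of members were the larger in each of these classes, and in the class of at least 200 the quartile ranges just missed each other. Within the windows, the correlation of height and width was 0.45 over 11 regions, 0.38 over 18 and 0.71 over 17. These values describe regions of 1 library and carry no test. Of the 100 widest regions of the list, 9 were members.

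**Figure D3:**
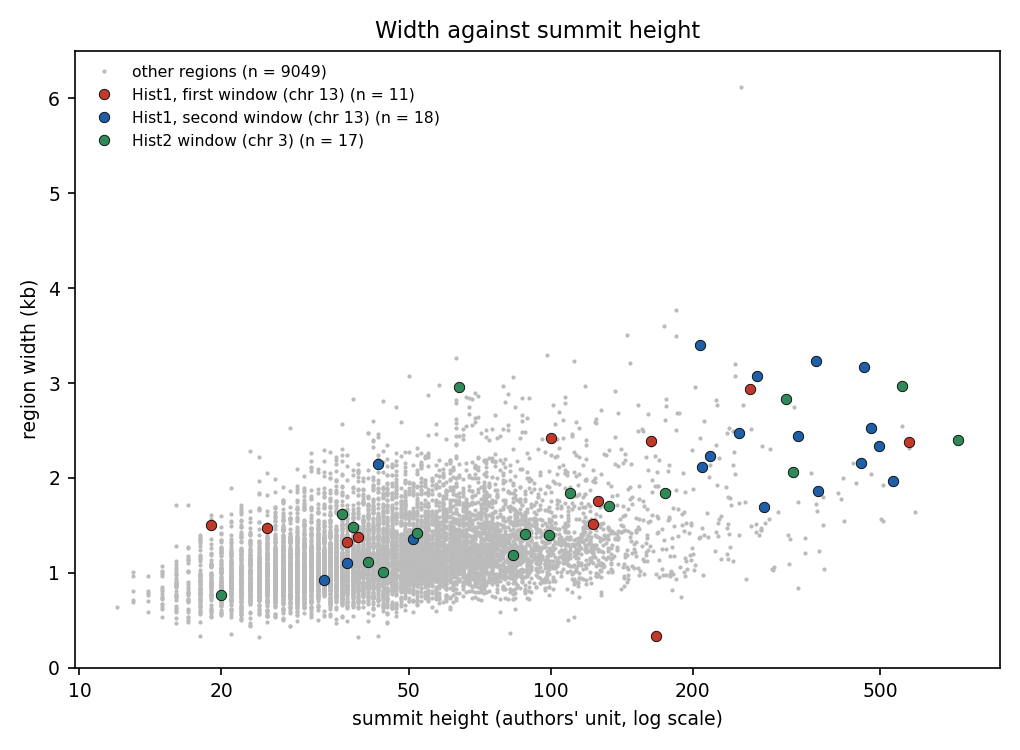
Region width in kb against summit height in the authors' unit (log scale), with grey points for the 9049 regions outside the windows and coloured points for the 46 members. Most members above a height of 200 lie over 2 kb wide, and 1 member of the first Hist1 window is 334 bp wide at a height of 167.

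Spacing differed between the windows. Of the list, 17.2% of regions had another within 10 kb, edge to edge. In the second Hist1 window 12 of 18 members did (66.7%, 41.0 to 86.7), and in the Hist2 window 11 of 17 (64.7%, 38.3 to 85.8). In the first Hist1 window only 2 of 11 did (18.2%, 2.28 to 51.8), which is near the share of the list. The flanks gave 4 of 11, 6 of 16 and 12 of 44, so the first Hist1 window was no closer-spaced than its surroundings by this measure. The median gap between consecutive members was 19.7 kb, 9.89 kb and 14.5 kb in the first Hist1, second Hist1 and Hist2 windows, against 32.8, 25.5 and 37.8 kb in their flanks. The closest pair of members was 2.06 kb apart, edge to edge, in the second Hist1 window, with heights of 455 and 498. The pair of heights 274 and 369, also in that window, was 2.76 kb apart. The tallest pair, 556 and 730 in the Hist2 window, was 3.44 kb apart. In these 3 pairs the heights differed by at most 1.35 times. Over all consecutive members within 10 kb of each other, the taller was a median of 1.27 times the lower in the second Hist1 window (9 pairs, 1.09 to 6.33 times) and 2.60 times in the Hist2 window (7 pairs, 1.30 to 19.2 times). The first Hist1 window had 1 such pair, 576 and 100, which differed by 5.76 times. Close neighbours thus ranged from nearly equal to very unlike in height, and the ranges of the windows with several pairs overlapped. Together the members covered 3.23%, 6.70% and 6.67% of their windows, against 0.310%, 0.530% and 1.34% of the flanks.

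**Figure D4:**
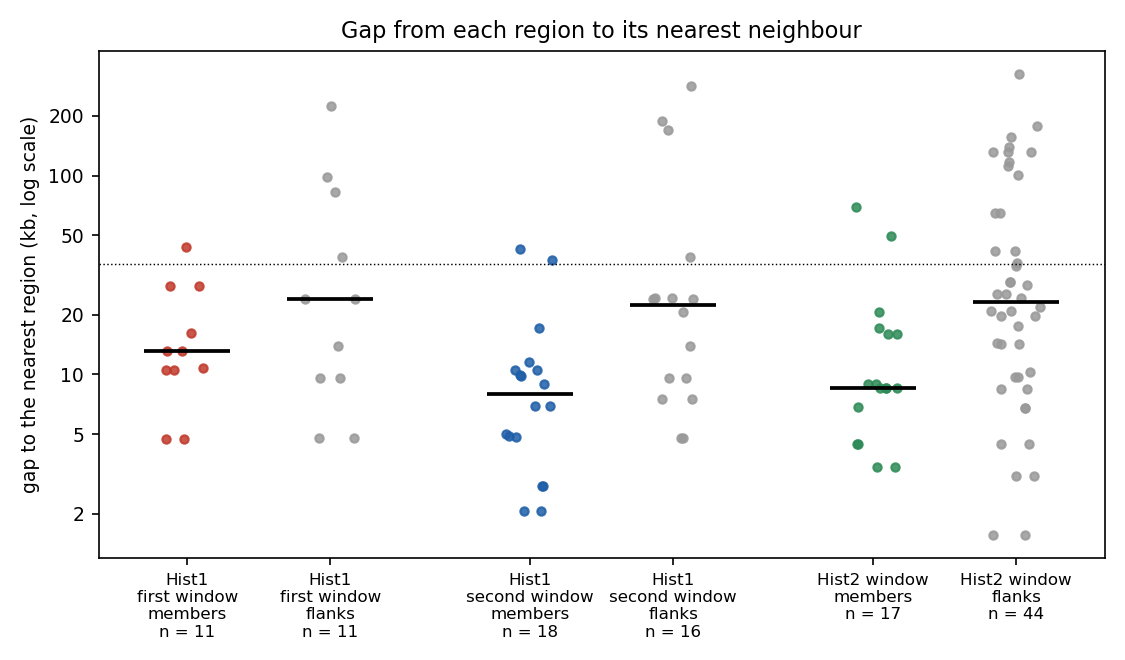
Gap in kb (log scale) from each region to its nearest neighbour, edge to edge, for members (coloured) and flank regions (grey), with medians as bars and the list median of 35.8 kb as a dotted line. Median gaps of members were 13.2, 7.97 and 8.56 kb, against 23.9, 22.3 and 23.1 kb in the flanks.

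Summits lay off the middle of their regions in a larger share of members than of the list. The summit lay in the outer part, under 25% or over 75% of the width, in 5.92% of the list and in 10 of the 46 members (21.7%, 10.9 to 36.4). These were 2 members of the first Hist1 window (18.2%, 2.28 to 51.8), 5 of the second (27.8%, 9.69 to 53.5) and 3 of the Hist2 window (17.6%, 3.80 to 43.4). In the flanks they were 0 of 11, 0 of 16 and 2 of 44 regions. Taken window by window, only the interval of the second Hist1 window lay above the share of the list. The intervals of the 3 windows overlapped, so the windows were not separable by this measure. It was added after the data were seen and carries no test. The tallest region of the first Hist1 window had its summit at 77.6% of its width. In the second Hist1 window the regions of heights 365 and 251 had theirs at 78.5% each, and that of height 209 at 12.9%. The summit farthest from the middle was that of the region of height 126 in the first Hist1 window, at 10.2%, and in the Hist2 window that of the region of height 175, at 84.5%. All 46 summits of members lay on multiples of 16 bp, as did 9005 of the 9095 in the list, which limits how finely a summit is placed. Whether off-centre summits mark 2 merged sources of signal was not tested.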

How the data were processed

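NELF-B ChIP-seq was measured in 1 library, with 1 input library whose values were not used. Per the labels' protocols, cells were fixed for 15 min in 1% formaldehyde, chromatin was sheared to 300 to 500 bp, and fragments of 175 to 225 bp were amplified for 18 cycles. The authors deposited 3 tracks: summits with a height, which is a score of their own, then intervals, then active regions. MACS is named in the submitters' processing notes. The aligner, genome build, threshold and use of the input were not given in the sources used here. Each of 9095 summits lay in the interval of the same order. Starts were raised by 1.

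Medians have exact order-statistic 95% intervals, shares exact Clopper-Pearson intervals, and density ratios the interval of the share of regions inside the window. No test over samples was possible with 1 library. The window calculation was tested on simulated data, with regions placed uniformly at random, a uniform gain in height, and more members per window. That setting does not show how the intervals hold for few, clustered regions of mixed height, as here. Members, lists and windows were chosen with earlier results of these data known. All members are described. The report names, in windows of more than 15 members, the 5 tallest, 2 lowest, widest, first and last. Off-centre summits, runs broken at 50 kb, classes of height and shared 30-base words were added after the data were seen. The pseudogene H2af-ps2, far from the cluster, was left out, and proteins were not used here. Calculations used SciPy 1.17.1 with NumPy 2.4.6 and pandas 2.3.3 in Python 3.11.15, and plots matplotlib 3.10.9.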

Additional observations from a re-analysis of the deposited data

How the results depend on the processing

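The 12 ratios and shares were recomputed in 93 alternatives: 86 values fell within the interval given for the result, 7 fell outside it and 0 changed direction. A change of direction was counted only for ratios whose interval excluded 1. It was thus not counted for shares or for the height ratios of the first Hist1 and Hist2 windows. Against all other regions of the chromosome, the width ratio of the first Hist1 window was 1.40 and the density ratio of the Hist2 window 13. The density ratio of the Hist2 window was 7.13 with flanks of 5 Mb and 6.87 against the flank after it, and the width ratio of the second Hist1 window was 2.30 against the flank before it. The share of members of the first Hist1 window among the tallest was 100% when only regions at or above the list median height were kept. For the tallest 1% of the list it was 18.2%. By construction the former setting cannot lower a share and the latter cannot raise it, but the sizes are not fixed. For the others the cause was not tested. Membership by overlap gave the same values as by summit in all 12 results. The flank after the first Hist1 window held no region, so it gave no ratio. The flank before that window could only repeat its main ratios of height and width. No paired analysis was possible because there is 1 library per group, and no replicate could be left out. The unknown depth limits every height.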
